A study of Homo sapiens with 2 samples.

Results

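The molecular chaperone genes were examined in a PAR-CLIP experiment for YBX1 in HEK293, a line of human embryonic kidney cells. Chaperones bind unfolded or newly made proteins and help them reach and keep their shape. The list held 44 genes, and a YBX1 site was counted for a gene when its midpoint lay within the span of that gene in GENCODE release 44 on the same strand. By this rule 16 of the 2054 listed sites lay in 11 of the 44 genes, and 33 genes had no listed site. The labels describe 2 replicates of one condition, both named for HEK293 cells and for an antibody to YBX1 (D2A11), whereas the methods of the study give a T-REx HEK293 Flp-In line, stably overexpressing YBX1 with a FLAG/HA tag, and a precipitation through the FLAG tag. Which of them applies was not settled here. There was no second condition or control library among the samples. The authors pooled both replicates into 1 list that gives position, strand, nearest gene and annotation of each site but neither read counts nor scores. The depth behind a site and the spread between replicates are therefore unknown, and no test over samples was possible. The intervals given below cover error of counting alone.

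YBX1 is a cold-shock domain protein that coats mRNAs, mostly in the cytoplasm, and is known as a regulator of their stability and translation. In PAR-CLIP, cells take up 4-thiouridine, which replaces uridine in new RNA and crosslinks to bound protein under ultraviolet light, and the bound RNA is trimmed with RNase T1, which cuts single-stranded RNA after G. Chaperones act as a network. HSP70 proteins bind short hydrophobic stretches with the help of J-domain proteins. HSP90 proteins act on partly folded clients handed over by co-chaperones, and the ring-shaped cytosolic chaperonin (CCT) folds actin and tubulin. Lectin chaperones, disulfide isomerases and some cyclophilins serve the folding of proteins in the secretory pathway.

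The sites themselves show where on the chaperone mRNAs YBX1 was crosslinked, and those in exons of the members are given here because the results turn on their position and base content. They were read from GRCh38 on the RNA strand, 5′ to 3′ and with T for U. Capitals mark the tetramers CAAC and CATC, searched on the RNA strand alone and picked because earlier counts in these data had shown them.
HSP90AA1, coding sequence, chr14:102086041-102086058, minus strand: catattaaccttataccg
HSP90AA1, coding sequence, chr14:102083932-102083953, minus strand: atctccctctaaacatatcccg
HSP90AA1, 3′UTR, chr14:102081663-102081680, minus strand: tactctacaattcctctg
HSP90AB1, 5′UTR, chr6:44247175-44247195, plus strand: tataatccttttcttttcaag
HSPA8, coding sequence, chr11:123059697-123059718, minus strand: acttctatacctccattacccg
HSPA4, 3′UTR, chr5:133104788-133104814, plus strand: acttacatggcaggagctctaattatg
HSPA4, 3′UTR, chr5:133105499-133105524, plus strand: ttataaCAACacctcattcttaactg
HSPH1, 3′UTR, chr13:31135849-31135870, minus strand: cCAACtttccctcttccacaag
DNAJA2, coding sequence, chr16:46968114-46968133, minus strand: aCAACcaaactaCAACttag
DNAJA2, 3′UTR, chr16:46956851-46956873, minus strand: tataatttaaactaaccacaaag
CCT3, coding sequence, chr1:156312103-156312123, minus strand: aatactttactttCATCactg
CCT4, 3′UTR, chr2:61868479-61868501, minus strand: atttatcttctccCAACattctg
CCT5, coding sequence, chr5:10250372-10250400, plus strand: aatatgggcgccctttcctCATCATCaag
PPIB, 3′UTR, chr15:64155855-64155876, minus strand: taacaaactcctacCAACactg

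HSP90AB1 also held the widest site among the members, of 33 nt in the coding sequence, printed because it was the only one with both tetramers.
HSP90AB1, coding sequence, chr6:44248705-44248737, plus strand: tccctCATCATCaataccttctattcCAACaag

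Of the 44 chaperone genes, 11 carried a site (25%, Wilson 95% interval 14.6 to 39.4). Over all 20033 protein-coding genes outside the mitochondrial chromosome, the same rule gave a site for 1355, or 6.76%. No measure of mRNA level was used here, and the background includes genes that may be silent in this line, so both shares are given side by side and nothing is read from their difference. A gene without a listed site is likewise not shown to be unbound. HSP90AA1 had 3 sites (exact Poisson 95% interval 0.619 to 8.77), HSP90AB1, HSPA4 and DNAJA2 had 2 each, and HSPA8, HSPA14, HSPH1, CCT3, CCT4, CCT5 and PPIB had 1 each. Over all protein-coding genes, 98 (0.489%) had 3 or more sites and 294 (1.47%) had 2 or more. When only the sites in exons were counted, 10 members remained, against 6.12% of protein-coding genes. Among sites above the median width of 22 nt, 5 members with 6 sites were left, which were HSP90AB1, HSPA4, DNAJA2, CCT4 and CCT5, and none of the HSP90AA1 sites was among them.

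**Figure D1:**
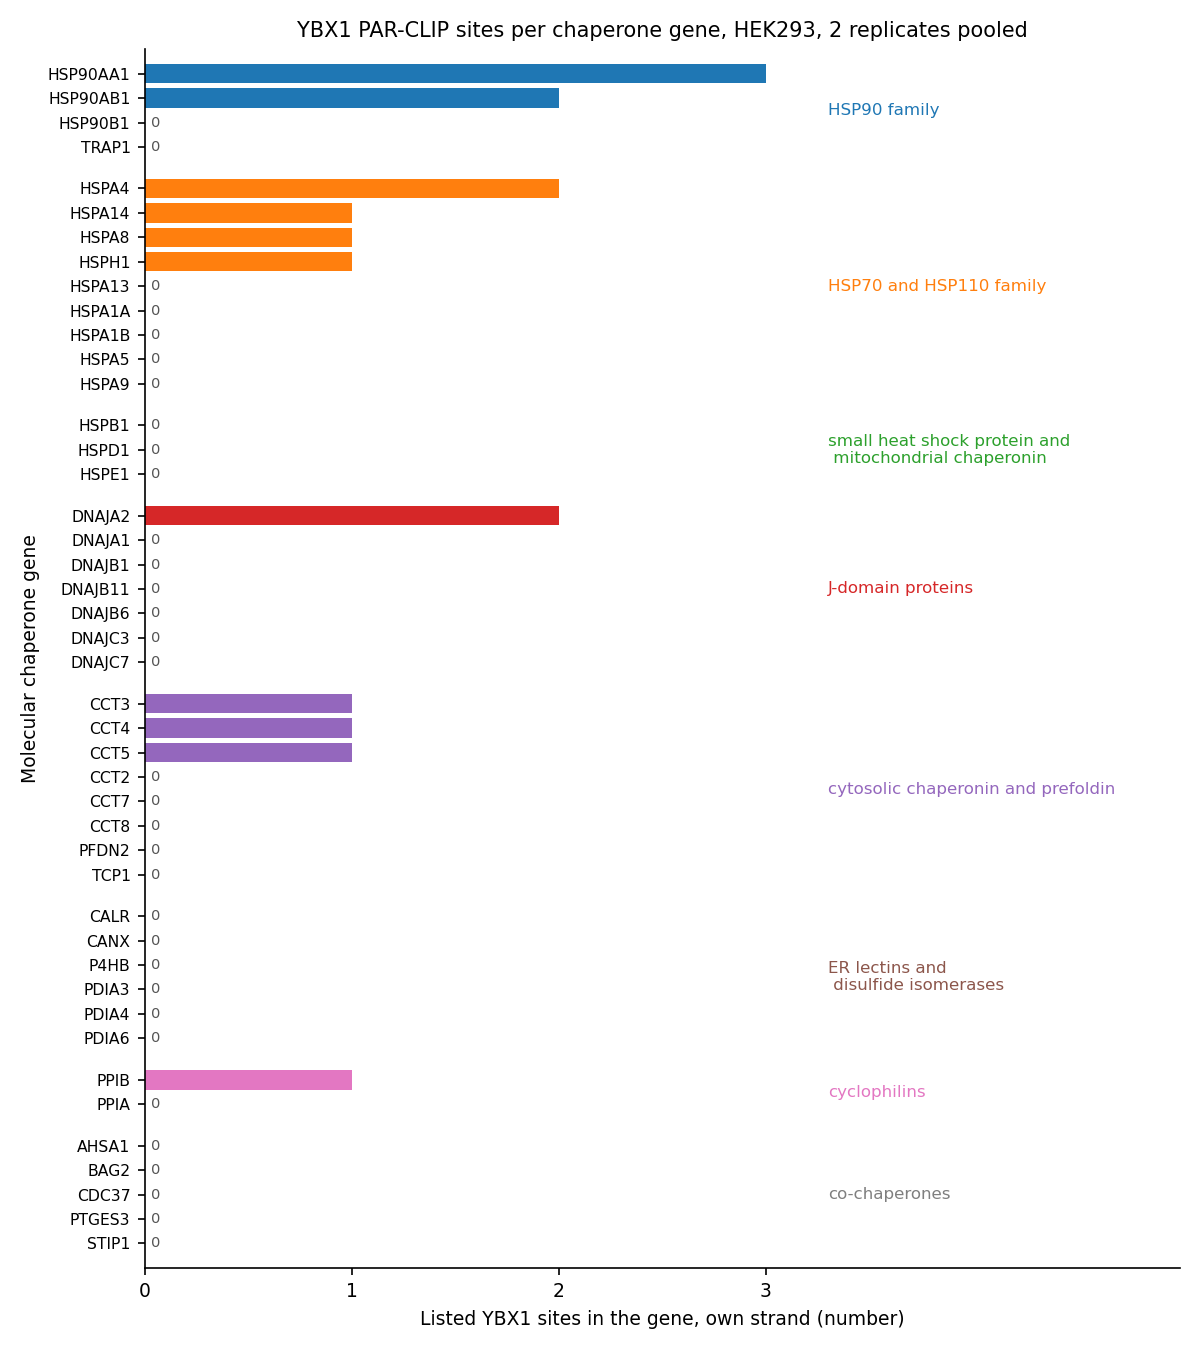
Number of listed YBX1 sites (x axis) in each of the 44 chaperone genes (y axis), grouped and coloured by role, with both replicates pooled. HSP90AA1 has 3 sites, and 33 genes have 0. Among these are the 5 genes grouped as co-chaperones and the 6 grouped as lectins and disulfide isomerases.

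By role, most sites lay in the HSP90 family and in the joint HSP70 and HSP110 family, with 5 each. In the HSP90 family, 2 of 4 genes carried 5 sites. These were HSP90AA1 and HSP90AB1, the inducible and the constitutive cytosolic HSP90, whereas HSP90B1 of the endoplasmic reticulum and TRAP1 of the mitochondrion had 0. In the HSP70 and HSP110 family, 4 of 9 genes carried 5 sites, and HSPA1A, HSPA1B, HSPA5, HSPA9 and HSPA13 had 0. The HSP110 genes HSPA4 and HSPH1 had 2 and 1 of the 5. HSPA8 had 1, and HSPA14 had 1 that lies in an intron. HSPA1A and HSPA1B, the heat-inducible HSP70 genes, are near-identical copies, so that short reads from them can be hard to assign to either. Of 7 J-domain proteins, which stimulate the ATPase of HSP70, only DNAJA2 had sites, and DNAJA1, DNAJB1, DNAJB6, DNAJB11, DNAJC3 and DNAJC7 had 0. Of 8 genes for the cytosolic chaperonin and prefoldin, CCT3, CCT4 and CCT5 had 1 site each, and TCP1, CCT2, CCT7, CCT8 and PFDN2 had 0. Of 2 cyclophilins, PPIB of the endoplasmic reticulum had 1 site and PPIA of the cytosol had 0. No site was listed in the 6 genes for lectins and disulfide isomerases of the endoplasmic reticulum (CALR, CANX, P4HB, PDIA3, PDIA4 and PDIA6). The same held for the 5 genes grouped here as co-chaperones (STIP1, AHSA1, BAG2, CDC37 and PTGES3), and for HSPB1, HSPD1 and HSPE1. These groups are small and no difference between them was tested.

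HSP90AA1 (chromosome 14, 102080742 to 102139699) carried its 3 sites at wide intervals along the 3228 nt of its MANE Select transcript, the reference transcript agreed by RefSeq and Ensembl. They began at nt 288, nt 1237 and nt 2290, so that the gaps between starts were 949 nt and 1053 nt. The first lay in exon 3 over codons 77 to 82, in the N-terminal ATP-binding domain. The second lay in exon 7 over codons 393 to 400. The third lay in the last exon, 32 nt after the stop codon, with 921 nt of 3′UTR behind it. The 3 sites were 18, 22 and 18 nt wide and held no G before the last base, and none of them had CAAC or CATC. Their density was 0.929 sites per kb of transcript (exact Poisson 95% interval 0.192 to 2.72). Among the 10 members with a site in an exon, densities ran between 0.191 per kb in HSPH1 and 1.12 per kb in PPIB with a median of 0.474, against a median of 0.302 over the 1227 protein-coding genes with such a site. Every gene in both sets has a site, so for a given number of sites a shorter transcript gives a higher density. The median transcript was 2782 nt in these 10 members and 3955 nt in the 1355 protein-coding genes with any site. Nothing is read from the difference in density.

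In HSP90AB1 (chromosome 6, 44246166 to 44253888) both sites lay near the 5′ end of the 2555 nt transcript, at nt 75 and nt 171, with 96 nt between their starts. The first was the only site of the members in a 5′UTR. That 5′UTR is 95 nt long and fills exon 1, and the site covered its last 21 nt, so that it ended at the splice junction and directly before the start codon. It had the lowest share of C and A of the 16 sites (42.9%) and the most T, with 11. The second site, in exon 2, covered codons 26 to 36.

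The coding sequences of HSP90AA1 and HSP90AB1 were 75.7% identical over aligned codons, and their proteins 86.7%, yet no site of one lay at the aligned place of a site of the other. The nearest pair was 138 nt apart. In the stretches below, capitals mark the bases in which the paralog differs from the site, and positions count from 1 at the 5′ end of the site. The HSP90AB1 stretch aligned with the second HSP90AA1 site (codons 385 to 392) differed by C5G, T8C, A11G and A17C, and thereby held 3 G in place of 1. The stretch aligned with the first HSP90AA1 site (codons 72 to 77) differed at 7 of 18 positions and held 72.2% C and A, against 61.1% in the HSP90AA1 site itself. The HSP90AA1 stretch aligned with the coding site of HSP90AB1 (codons 31 to 41) differed at 7 of 33 positions, C27G among them, which removes the CAAC, while a CATC remains. Both HSP90AB1 stretches printed here hold CATC and had no listed site, though the HSP90AA1 sites they align with have neither tetramer.
HSP90AB1 at the second HSP90AA1 site: atctGccCctGaacatCtcccg
HSP90AB1 at the first HSP90AA1 site: AaAattGacAtCatCccC

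HSPA8, the constitutive cytosolic HSP70, carried 1 site in exon 5 (nt 953 to 974 of 2264) over codons 292 to 299, in the nucleotide-binding domain, with 63.6% C and A. The authors' annotation calls it a promoter site and GENCODE places it in coding sequence. HSPA1A, whose protein was 86.3% identical over aligned residues, had no site there. Its aligned stretch (also codons 292 to 299) differed from the HSPA8 site by T8C, C11G, T17C and C21A. T17C gives that stretch a CATC, which the HSPA8 site lacks.
HSPA1A at the HSPA8 site: acttctaCacGtccatCaccAg
In HSPA5, the HSP70 of the endoplasmic reticulum, the aligned stretch differed at 9 of 22 positions and had no site either. Like the HSPA8 site, that stretch held neither CAAC nor CATC. A further site on chromosome 11 (123070787 to 123070804) that carries the name HSPA8 in the list lies outside HSPA8, in the 3′UTR of CLMP, and was not counted.

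The HSP110 proteins HSPA4 and HSPH1, which exchange nucleotide on HSP70, had the longest coding sequences of the members with a site, 2523 and 2577 nt, and all of their sites were in long 3′UTRs. In HSPA4 (chromosome 5, 133052013 to 133106449) sites began 352 nt and 1063 nt after the stop codon in a 3′UTR of 2013 nt, 711 nt apart. They differed in content, with 48.1% C and A and 5 G before the last base in the first, and 61.5% C and A, no such G and a CAAC in the second. In HSPH1 (chromosome 13, 31134973 to 31162388) the site began 1448 nt after the stop codon in a 3′UTR of 2345 nt, held 68.2% C and A and had a CAAC next to its 5′ end. HSPA14, an HSP70-like protein associated with the ribosome, was counted for a site of 19 nt on chromosome 10 (14842338 to 14842356) that lies in an intron of HSPA14 and in a coding exon of MSANTD7, a gene that overlaps it on the same strand. The authors' column names HSPA14 there, and their annotation calls the site a noncoding exon. By GENCODE it was the only one of the 16 sites outside the exons of its member. It was also the only one that did not end in G.

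DNAJA2, a cytosolic J-domain protein of the type with a zinc-binding region, carried 1 site in coding sequence and 1 in the 3′UTR, 1001 nt apart on a transcript of 3008 nt. The coding site in exon 4, over codons 132 to 138, had the highest share of C and A of all 16 (80.0%) and held CAAC at 2 places. The 3′UTR site began 156 nt after the stop codon and was rich in A, with 12 of 23 bases (69.6% C and A), without CAAC or CATC. DNAJA1, its closest member, had no site, and its stretch aligned with the coding site differed at 9 of 20 positions and held 4 G. That stretch held neither CAAC nor CATC.

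Among the subunits of the cytosolic chaperonin, the sites lay in different parts of the mRNA. In CCT5 the site was in exon 1 (nt 93 to 121), over codons 11 to 20, and held 2 overlapping CATC and 4 G before the last base. In CCT3 it lay in exon 11 over codons 358 to 365 with a single CATC, and in CCT4 in the last exon, 191 nt after the stop codon, with a single CAAC. Their shares of C and A were 55.2%, 52.4% and 52.2% in this order. The authors' column names VHLL, another gene, for the CCT3 site and no gene for the CCT5 site, so a search by name alone would leave both out. PPIB, with the shortest transcript of the members that had a site (893 nt), carried its site in the last exon, 147 nt after the stop codon and 38 nt before the transcript end, with 77.3% C and A and a CAAC. The authors' annotation calls it a transcript end.

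**Figure D2:**
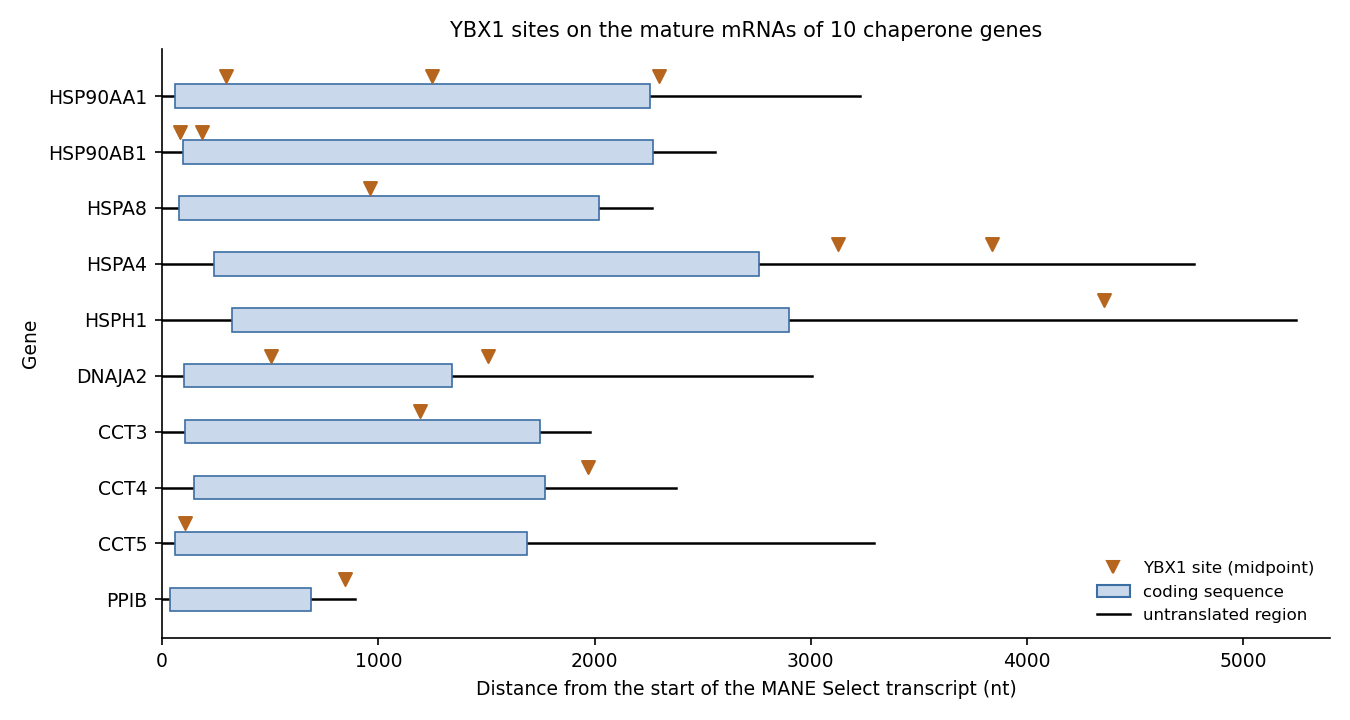
Mature MANE Select transcripts of the 10 chaperone genes with a site in an exon, drawn to scale in nt from the transcript start (x axis), with the coding sequence as a box, untranslated regions as lines and a triangle at each site. Sites lie at both ends of the mRNAs, from nt 75 in HSP90AB1 to 38 nt before the end in PPIB.

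On 1 transcript per gene, 7 of the 16 sites lay in 3′UTRs (43.8%, Wilson 95% interval 23.1 to 66.8), 7 in coding sequence (43.8%, 23.1 to 66.8), 1 in a 5′UTR and 1 in an intron. Over all 2054 listed sites, 3′UTRs held 46.5% and coding sequence 30.9% on 1 transcript per gene, both within the intervals of the members. All listed sites were classed by any gene at the midpoint on their strand, and member sites by the member alone. Among the member sites, only that of HSPA14 lay in another gene as well. When a site counted as 3′UTR if it was so in any transcript of the gene, 3′UTRs held 11 of the 16 sites (68.8%, 44.4 to 85.8), against 55.4% of all listed sites. Coding exons then held 3 (18.8%, 6.59 to 43.0), against 23.6%. The 4 sites that moved were the coding sites of HSP90AA1, DNAJA2 and CCT3, and each transcript that places them in a 3′UTR is annotated by GENCODE as subject to nonsense-mediated decay (2 transcripts of CCT3 and 1 for each of the other sites). In the authors' annotation, 5 of the 16 were 3′UTR, 4 exon, 1 5′UTR, and 2 each noncoding, promoter and transcript end.

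**Figure D3:**
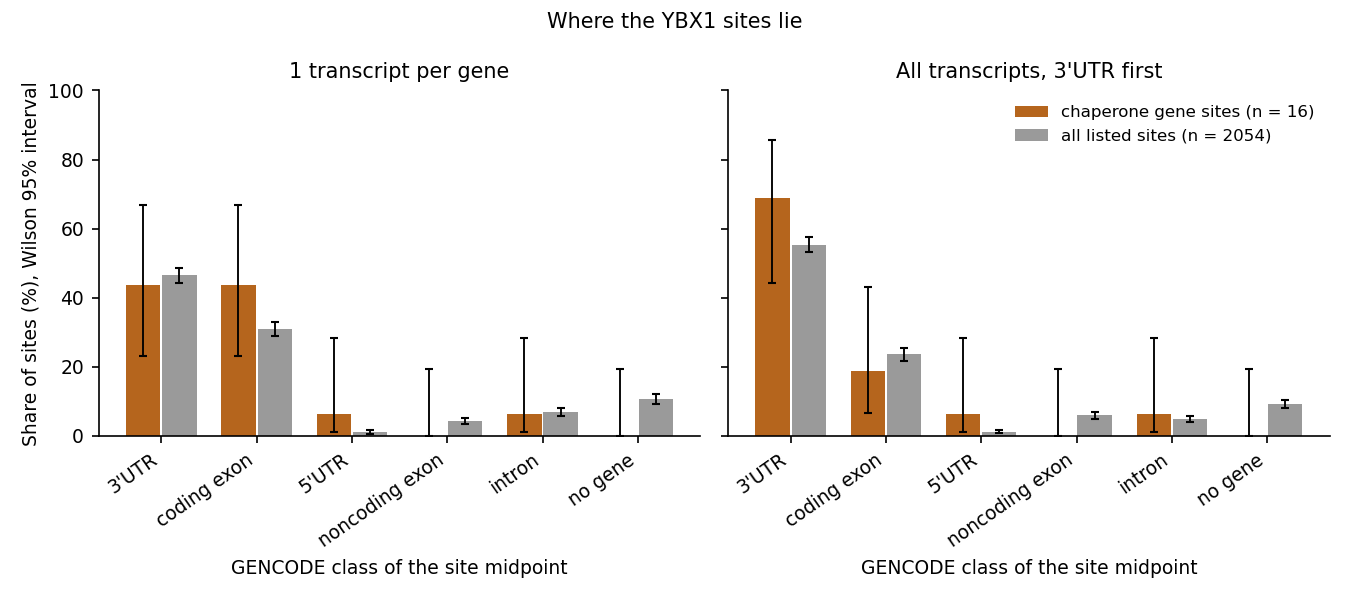
Share of sites in each GENCODE class (y axis, percent with Wilson 95% intervals) for the 16 sites in chaperone genes and all 2054 listed sites, with 1 transcript per gene on the left and all transcripts with 3′UTR first on the right. The share in 3′UTRs of the chaperone sites is 43.8% on the left and 68.8% on the right, with wide intervals.

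The 16 sites were between 18 and 33 nt wide with a median of 22, and the other 2033 sites of up to 60 nt had the same median. All 16 followed a G (Wilson 95% interval 80.6 to 100), against 79.0% of the other sites. Of the 16, 15 ended in G, against 87.6%, and 14 held no G before the last base (87.5%, Wilson 95% interval 64.0 to 96.5), against 77.5%. All 16 held T, between 3 in the coding site of DNAJA2 and 11 in the 5′UTR site of HSP90AB1. Over all their bases, the member sites had 30.9% C, 30.6% A, 32% T and 6.56% G, and the other sites 28.5% C, 32.1% A, 31.3% T and 8.09% G. The share of C and A per site ran between 42.9% and 80.0% with a median of 62.3%, against a median of 61.5% in the other sites. CAAC was present in 6 of the 16 sites (37.5%, 18.5 to 61.4), against 26.5% of the other sites. CATC was present in 3 (18.8%, 6.59 to 43.0), against 25%, and either of them in 8 (50%, 28 to 72), against 44.2%. The intervals of the 3 tetramer shares include the values of the other sites.

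For 10 of the 16 sites, at least 1 equally wide window could be read in the same exon, 100 nt to either side and free of listed sites. In all 10 the site held more C and A than the mean of its windows, and with windows 300 nt away 5 of 7 did. The sites averaged 62.5% ± 8.80 and the windows 50.5% ± 5.56, a difference of 12 percentage points ± 7.43 (SD over 10 sites). For 1529 other listed sites in exons the difference was 12.3 points ± 13.7. With windows 300 nt away it was 11.7 points ± 12.9 over 7 member sites. Among the members it was largest in the 3′UTR site of DNAJA2 (69.6% against 45.7%) and in PPIB (77.3% against 54.5%), and smallest in CCT4 (52.2% against 47.8%). CAAC or CATC was present in 40.0% of these 10 sites and in 5% of their windows, against 46.2% and 13.6% for the other listed sites. These window shares, like those at 300 nt, are means over sites, and among the members only CCT4 had a window with a tetramer at 100 nt. Since the tetramers were picked from earlier counts in these data, the gap between sites and windows is a description alone. The gap depended on the windows, since at 300 nt the tetramers were in 42.9% of 7 member sites and in 35.7% of their windows, against 44.5% and 11.9% for the other listed sites. The part of trimming by RNase T1 in the low G of the sites was not tested. When shares were taken over A, C and T alone, the member sites minus their windows gave -1.42 points and so a slightly lower share in the sites. Only 3 sites, the 3′UTR sites of DNAJA2 and HSPA4, had windows in their exon bounded by G in the same way and equal to the site in the number of inner G. There 2 of 3 sites were above their windows and the difference was 0.886 points ± 1.14 (SD), against 4.49 points ± 13.1 over 933 other listed sites.

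**Figure D4:**
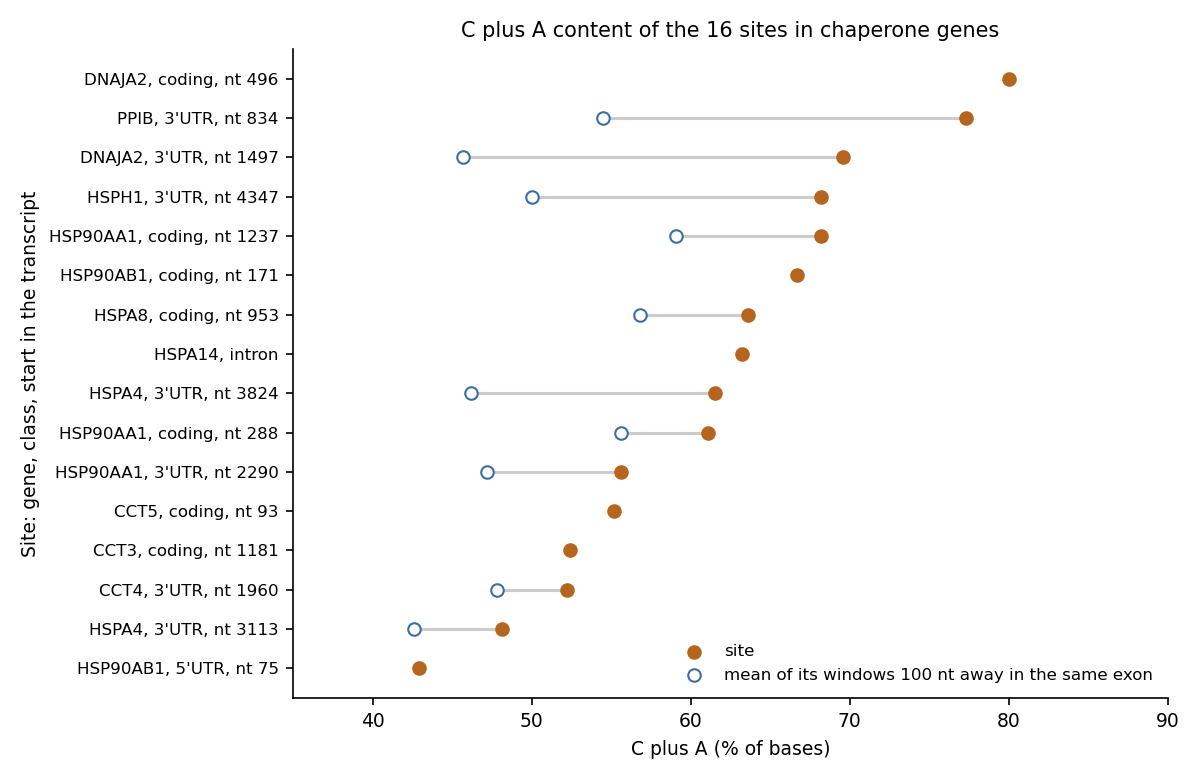
Share of C and A (x axis, percent of bases) in each of the 16 sites (filled) and the mean of its windows at 100 nt to either side (open, for the 10 sites that had one). Every filled point with such a window lies to the right of its open point, by 12 percentage points on average, which held for 5 of 7 sites with windows 300 nt away.

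The length of the mRNA was compared between members with and without a site as a description. The median transcript was 2555 nt long in the 11 members with a site and 2245 nt in the 33 without, and the median 3′UTR 607 nt against 547 nt. In the 10 members with a site in an exon, which leaves out HSPA14, the median transcript was 2782 nt and the median 3′UTR 788 nt. Of the 10 members with the longest transcripts, 3 had a site, and of the remaining 34, 8 had one. Of the 10 members with the longest 3′UTRs, 2 had a site (HSPA4 and HSPH1), and of the remaining 34, 9 had one. BAG2, with the longest 3′UTR of the list (5643 nt), DNAJC3 (3958 nt), CANX (2997 nt) and HSPA13 (2502 nt) had no listed site. Over all protein-coding genes the median 3′UTR was 2038 nt in the 1355 genes with a site and 1019 nt in all 20033 genes.

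**Figure D5:**
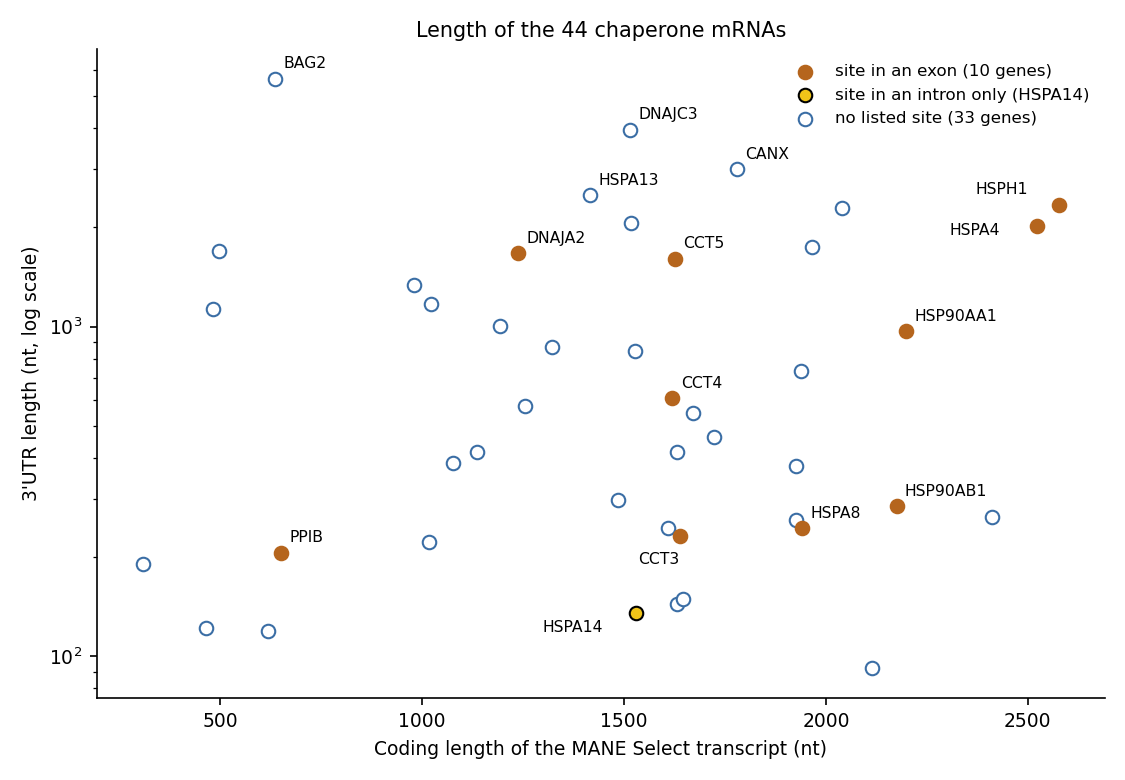
Coding length (x axis, nt) and 3′UTR length (y axis, nt, log scale) of the MANE Select transcripts of the 44 chaperone genes, filled where a site was listed in an exon, yellow for HSPA14 with its intronic site, and open where none was listed. The 4 longest 3′UTRs, those of BAG2, DNAJC3, CANX and HSPA13, belong to genes without a listed site.

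Chaperone genes have many processed pseudogenes, copies of the mRNA inserted elsewhere in the genome, to which short reads can be misassigned. GENCODE lists 201 pseudogenes named for 22 of the 44 members, and 0 of the 2054 sites touched one on either strand. The sequence of each of the 16 member sites occurred once on the assembled chromosomes. With 1 mismatch allowed, 8 of the 16 had a copy, 15 copies in all, of which 5 lay in a processed pseudogene of the gene. These were HSPA8P8 for the HSPA8 site, HSP90AA2P for both coding sites of HSP90AA1, HSP90AB3P for the coding site of HSP90AB1 and CCT5P1 for the CCT5 site. Crosslinked 4-thiouridine is read as C in place of T, and 4 of the 15 copies differed from the site by T and C, 1 of them in an annotated pseudogene. For the HSPA8 site in HSPA8P8 (C21T) and for the first HSP90AA1 site in the lncRNA gene FAM201A (C1T), the copy has T, so a read converted at that base would match the site. The other 2 copies were of the 3′UTR site of HSP90AA1, with C in place of its T. The copy on chromosome 11 (from 27888790) lies in no annotated gene. It is on the same strand as the HSP90AA2P copies of the coding sites (from 27889838 and 27890788) and close to them. Whether these copies are transcribed was not tested.

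A second list of 100 genes for other chaperones, co-chaperones and regulators of the stress response was set beside the members, of which 99 were found by symbol. A site was listed in 17 of the 99 (17.2%, Wilson 95% interval 11.0 to 25.8), against 6.76% of protein-coding genes. Of the 21 sites in all, 15 lay in the 3′UTR and 5 in the coding sequence of the MANE Select transcript. Over all listed sites the shares were 46.5% and 30.9% on 1 transcript per gene. The authors' column gives another gene name for 6 of the 21, in DDIT3, CLPX, DNAJC11, DNAJC25 and PDIA5, and by their names 13 genes had a site. The mitochondrial nucleotide exchange factors GRPEL1 and GRPEL2 had 2 sites each, all in 3′UTRs. DNAJC6, a J-domain protein that helps to uncoat clathrin vesicles, had 2, and DNAJC11 and DNAJC25 had 1 each. Single sites lay in BAG4 and BAG5, exchange factors of cytosolic HSP70, in FKBP4 and SUGT1, which work with HSP90, in VBP1, a prefoldin subunit, and in CLPX, a mitochondrial unfoldase. Of the genes of the unfolded protein response, ATF6 had 1 site and the transcription factors ATF4 and DDIT3 had 1 and 2. In the same response, ERN1, EIF2AK3, XBP1 and HERPUD1 had 0. SEL1L, of the degradation machinery of the endoplasmic reticulum, had 1. The site counted for PDIA5 lies outside its MANE Select transcript and within SEC22A as well, and that of DNAJC25 lies in the readthrough gene DNAJC25-GNG10 too.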

How the data were processed

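PAR-CLIP of YBX1 was done in HEK293 cells in 2 replicates. Per the methods, adapters were removed by the authors with cutadapt (version 1.4.1 in the submitters' notes). The PARA-suite placed reads on genome (GRCh38) and transcripts, BMix called crosslinked clusters by strand with its default settings, and HOMER supplied gene names and annotation. The deposited list pools both replicates and holds genome positions, without counts or scores. The members and gene lists were chosen with earlier results of these data known. The genome build of the list (hg38) is that of the sequence and annotation used here.

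Positions were read as starting at base 1, with the last base 1 before the listed end, where 87.6% of sites then end in G. Sites were placed by midpoint and strand in GENCODE release 44, and positions in mRNAs refer to the MANE Select transcript. Exact copies and copies with 1 mismatch were sought on the assembled chromosomes, and sites wider than 60 nt (5 sites) were left out of base content and copies. Paralogs were aligned by codon through a protein alignment (biopython 1.88). Intervals are Wilson or exact Poisson at 95% (scipy 1.17.1), and no test was made, since there are no sample values. Every member with a site, every member without one by role, and every gene of the second list with a site was to be named, of which 1 is not reported here by name. Placement and base content were checked on simulated sites of known class and content. The alternatives are given at the end.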

Additional observations from a re-analysis of the deposited data

How the results depend on the processing

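Any overlap in place of the midpoint, the authors' gene names, sites in exons alone, unique sequences and pseudogenes counted to the member left the counts of members and of their sites within 1.5 times. So did ignoring strand. For the number of sites alone, merging those within 50 nt and leaving out HSP90AA1 did so too. Among sites above the median width, 5 members with 6 sites and 6 genes of the second list were left, and 3.61% of protein-coding genes had a site. That background was 7.63% without regard to strand, 6.12% with sites in exons, 6.36% with unique sequences and 2.40% over all genes of GENCODE. Of the single genes, CCT3 and CCT5 lost their site by the authors' names, HSPA8 had 2 by them, and HSPA14 lost its site where exons alone counted. The share of member sites in 3′UTRs was 43.8%, as was that in coding exons, with coding exons first or with 1 transcript per gene, and the authors' annotation put 31.2% in 3′UTRs. The difference in C and A was 5.37 points with the sites extended by 10 nt, 0.886 points against windows cut as RNase T1 cuts, where 3 sites were left, and reversed to -1.42 points over A, C and T alone, where the low G of the sites no longer counts. The number of sites is small, and the depth behind each is unknown. No paired analysis was possible because both replicates were pooled into 1 list before deposit, and for the same reason no replicate could be left out.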
